A study of Mus musculus with 6 samples.

Results

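Nfkb2, Rel, Rela, Relb, Nfkbia, Nfkbie, Nfkbiz, Tnfaip3 and Birc3, 9 genes that encode NF-kB subunits or feedback regulators of the pathway, were measured in mouse inner medullary collecting duct (IMCD) cells, a model of the kidney's collecting duct epithelium. They come from a list of 10 subunits and feedback targets, chosen by name. The tenth, Nfkb1, had no probe set in the platform annotation used here and has no value. The 9 were read from 22180 genes that had a value, each gene through its brightest probe set among those annotated with exactly 1 symbol, and all 9 lay above the filter on dim genes that left 13308 genes for testing. Each of the 9 had a single such probe set.

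The cells had been transduced with a lentivirus carrying GFP together with ILK, integrin-linked kinase, an adhesion protein that couples integrins to actin. In the ILK-T173I group the vector carried the missense variant, and in the wild-type ILK group it carried the normal sequence, with 3 arrays in each group. EGF (20 ng/ml) was given to both groups for 15 minutes, with 1 hour of incubation before RNA was taken, so neither the response to EGF nor the effect of ILK overexpression is measured. The labels give stable lines and biological replicates but not how many lines stand behind a group, and no source used here says that the cells' own Ilk had been removed. With 1 line per group, line and variant cannot be told apart.

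NF-kB proteins are dimers of Rel-family subunits that wait in the cytoplasm, bound by inhibitors of the IkB family. When an upstream receptor activates the IKK kinase complex, IkB is degraded, the dimers enter the nucleus, and among the first genes they induce are those of their own inhibitors, so that the level of Nfkbia or Tnfaip3 RNA is widely read as a trace of recent pathway activity. In collecting duct cells the pathway is known for responses to infection, osmotic stress and inflammatory cytokines.

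The upstream sequences of the genes are shown because several of these promoters are classical targets of the factor that the genes control. RefSeq promoter windows of build GRCm38.p6 were found for 7 of the 10 listed genes; Nfkb1, Relb and Nfkbiz had none in that table. In the 250 bases before each annotated start, the classical kB consensus of 10 bases was searched on both strands, and overlapping matches were joined. It was present upstream of 5 of the 7 genes (Nfkb2, Rel, Nfkbia, Nfkbie and Tnfaip3) and in 4.46% of the 27025 genes with a window. Its looser form, GGG and CC around any 5 bases, was upstream of 7 of 7 and of 48.7% of all genes. Both counts took a gene as having a match when any of its windows did. A match describes the letters and does not show binding. Since kB-driven feedback is what these genes are listed for, the count is a description of the list. The windows below run 5′ to 3′ along each gene's strand and end at the base before the start, with consensus matches in capitals. They are those of Nfkb2 (chr19:46304487-46304736, plus strand, the first of 3 annotated starts), Nfkbia (chr12:55492648-55492897, minus strand), Nfkbie (chr17:45555450-45555699, plus strand), Tnfaip3 (chr10:19015411-19015660, minus strand, 1 of 2 annotated starts) and, for a window without a match, Birc3 (chr9:7873171-7873420, minus strand).
Nfkb2: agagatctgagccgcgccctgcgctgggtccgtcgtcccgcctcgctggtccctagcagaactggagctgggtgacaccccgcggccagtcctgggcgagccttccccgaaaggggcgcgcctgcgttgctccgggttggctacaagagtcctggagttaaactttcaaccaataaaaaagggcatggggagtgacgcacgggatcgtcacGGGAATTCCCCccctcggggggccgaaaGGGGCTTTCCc
Nfkbia: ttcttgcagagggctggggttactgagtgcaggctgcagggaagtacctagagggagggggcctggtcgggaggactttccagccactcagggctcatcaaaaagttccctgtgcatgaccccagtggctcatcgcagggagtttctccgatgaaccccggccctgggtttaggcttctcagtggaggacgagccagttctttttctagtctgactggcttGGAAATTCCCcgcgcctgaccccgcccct
Nfkbie: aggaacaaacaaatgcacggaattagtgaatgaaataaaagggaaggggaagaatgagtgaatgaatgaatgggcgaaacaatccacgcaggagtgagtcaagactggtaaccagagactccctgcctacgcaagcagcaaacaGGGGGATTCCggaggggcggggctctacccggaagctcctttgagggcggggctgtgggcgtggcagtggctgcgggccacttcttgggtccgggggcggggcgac
Tnfaip3: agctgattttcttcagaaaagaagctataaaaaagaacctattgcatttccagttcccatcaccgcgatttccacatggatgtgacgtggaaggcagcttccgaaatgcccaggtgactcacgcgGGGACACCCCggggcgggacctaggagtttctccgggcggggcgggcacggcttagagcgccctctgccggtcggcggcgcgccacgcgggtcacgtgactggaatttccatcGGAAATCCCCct
Birc3: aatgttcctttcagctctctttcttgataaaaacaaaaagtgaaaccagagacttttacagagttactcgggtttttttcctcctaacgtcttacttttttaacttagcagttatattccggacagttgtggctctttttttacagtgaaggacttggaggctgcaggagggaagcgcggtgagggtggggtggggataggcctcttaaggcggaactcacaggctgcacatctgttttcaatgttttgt

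Tnfaip3 holds GGAAATCCCC, 12 bases before the start whose window is printed, and GGGACACCCC at 125 bases. The window of its other annotated start held no consensus match. Nfkbia holds GGAAATTCCC, 29 bases before its start. Nfkb2 has overlapping matches that begin 39 and 38 bases before its first start and another, GGGGCTTTCC, at 11 bases, while the single match of Nfkbie, GGGGGATTCC, begins 106 bases upstream. Rel, whose window is not printed, has GGGAAATCCC at 92 bases, overlapped by a second match at 91. Rela, whose window is also not printed, had no consensus match, and neither did Birc3.

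None of the 9 genes differed between T173I and wild-type ILK in limma's test, where the lowest adjusted p among them was 0.51 (that of Birc3). The percentage of all 13308 tested genes called at an adjusted p of 0.05 was likewise 0%, with a lowest adjusted p of 0.34. At an unadjusted p under 0.05 the count was 0 of 9, against 10.2% of all genes tested. Differences of the members, T173I minus wild type, ran from -0.37 to 0.14 log2 units, with a median of -0.18 against -0.011 over all genes tested. Of the 9, 6 were negative and 3 positive, where 7002 of all 13308 genes tested were negative and 6306 positive. For several feedback genes T173I replicate 3 was low and T173I replicate 2 high or near the wild-type level, as described below. For Relb and Birc3, T173I replicate 2 was below the wild-type range.

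**Figure D1:**
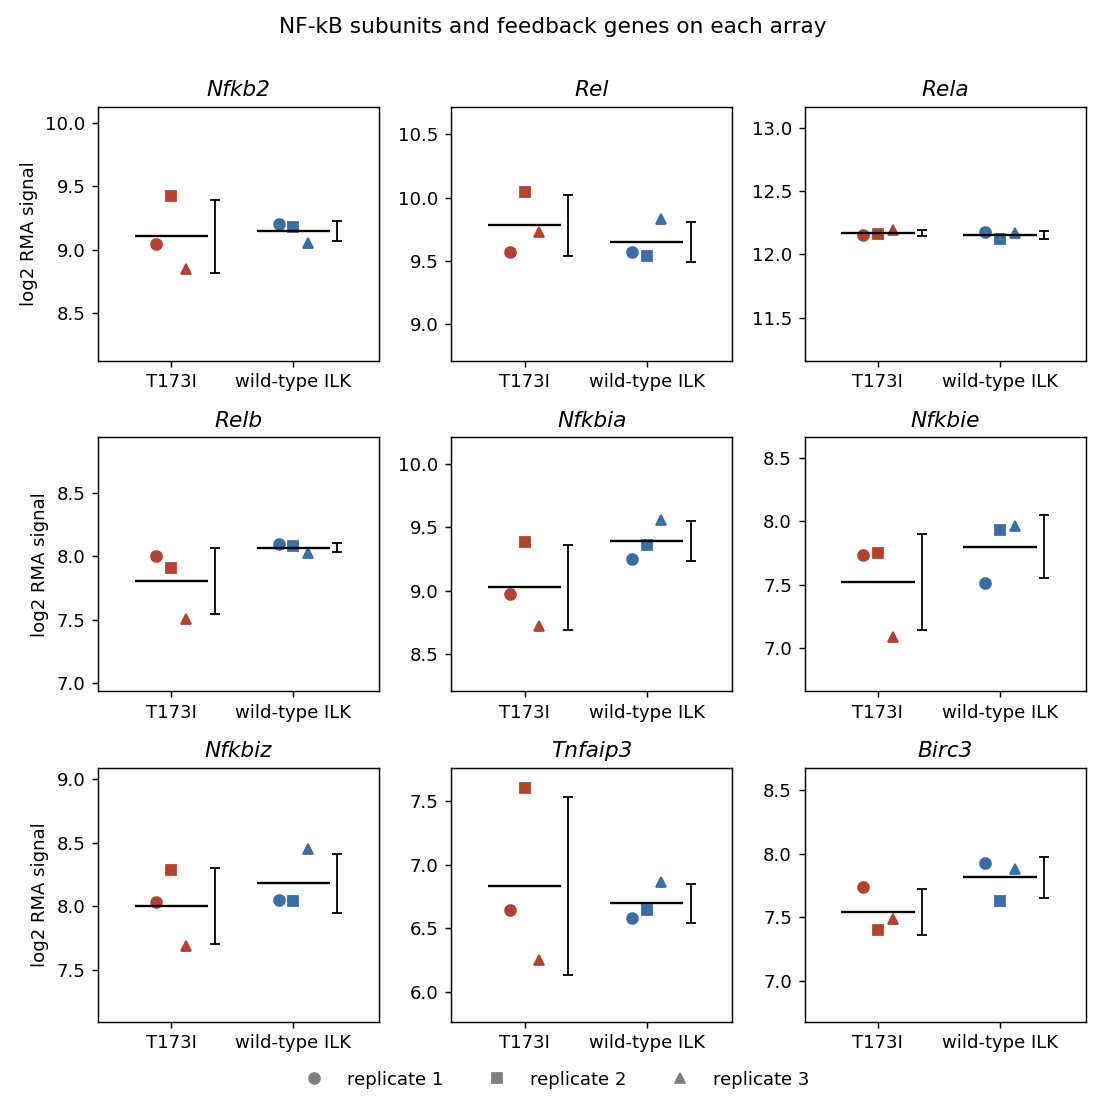
Log2 RMA signal of the 9 genes on each array, with T173I left and wild-type ILK right in every panel; points are arrays, shaped by replicate number, horizontal lines are group means and bars beside them are 1 SD (n = 3). All panels span 2 log2 units. The groups are apart only for Relb, and the T173I points of Tnfaip3 spread from 6.25 to 7.61.

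Among the subunits, Rela (probe set 17356490) encodes p65, the main transactivating partner of the classical dimer. Its log2 signal was 12.15, 12.16 and 12.19 on T173I replicates 1, 2 and 3, against 12.18, 12.12 and 12.17 on wild-type replicates 1, 2 and 3. The groups overlapped, and the difference of 0.014 had a 95% interval of -0.16 to 0.18 and a limma adjusted p of 0.95. Among T173I arrays 3.04% of tested genes had a smaller SD than Rela, and among wild-type arrays 9.97%.

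Rel (probe set 17261107), which encodes c-Rel, a subunit best known from lymphocytes, had log2 signals of 9.57, 10.04 and 9.73 on the T173I arrays and 9.58, 9.54 and 9.83 on the wild-type arrays. The value of T173I replicate 2 was above all others, while the other T173I arrays lay within the wild-type range. The difference was 0.13 (95% interval -0.22 to 0.48, limma adjusted p = 0.74). Leaving out T173I replicate 2 gave 0.0027, and leaving out T173I replicate 1 gave 0.24. Nfkb2 (probe set 17359967) encodes p100, which is cut to the subunit p52 and otherwise holds dimers back in the cytoplasm. Its log2 signals were 9.04, 9.42 and 8.85 on the T173I arrays, against 9.20, 9.18 and 9.05 on the wild-type arrays. The T173I arrays fell on both sides of the narrow wild-type range, and the mean difference was -0.041 (95% interval -0.40 to 0.32, limma adjusted p = 0.93).

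Relb (probe set 17487325), the partner of p52 in the non-canonical branch, was the one gene whose groups did not overlap. Its log2 signal was 8.00, 7.91 and 7.51 on the T173I arrays, against 8.10, 8.08 and 8.03 on the wild-type arrays. All T173I arrays were under the lowest wild-type array, replicate 1 by a small margin and replicate 3 by the most. The T173I mean was 7.81 ± 0.26 (SD, n = 3) and the wild-type mean 8.07 ± 0.036 (SD, n = 3), a 1.20-fold difference that did not pass (-0.26, 95% interval -0.59 to 0.066, limma adjusted p = 0.53). Of the 9 genes, 1 was thus lower without overlap and 0 were higher without overlap, against 7.95% and 7.23% of all genes tested. Without T173I replicate 3 the difference of Relb was -0.11.

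The inhibitors of the IkB family hold the dimers back or, in the case of Nfkbiz, act on them in the nucleus. Nfkbia (probe set 17281219) encodes IkB-alpha, the inhibitor that is degraded first and resynthesised as an NF-kB target. Its log2 signal was 8.97, 9.38 and 8.72 on the T173I arrays, against 9.25, 9.36 and 9.56 on the wild-type arrays. T173I replicates 1 and 3 were under every wild-type array and T173I replicate 2 was inside their range. The T173I mean was 9.02 ± 0.33 (SD, n = 3) and the wild-type mean 9.39 ± 0.16 (SD, n = 3), a 1.29-fold difference and the widest of the 9, with a 95% interval of -0.79 to 0.064 log2 units and a limma adjusted p of 0.52. Without T173I replicate 2 the difference was -0.54, and without T173I replicate 3 it was -0.21.

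Nfkbie (probe set 17337927) encodes IkB-epsilon, a later-acting inhibitor that is also induced by NF-kB. Its log2 signal was 7.73, 7.75 and 7.08 on the T173I arrays, against 7.51, 7.93 and 7.96 on the wild-type arrays. T173I replicate 3 was the lowest of the 6 and T173I replicates 1 and 2 lay within the wild-type range, so that the difference of -0.28 (95% interval -0.79 to 0.23, limma adjusted p = 0.64) was -0.061 without T173I replicate 3. Nfkbiz (probe set 17330967) encodes IkB-zeta, a nuclear cofactor for a subset of NF-kB targets. It had 8.03, 8.28 and 7.68 on the T173I arrays, against 8.05, 8.04 and 8.45 on the wild-type arrays. Again T173I replicate 3 was the lowest array, and the difference of -0.18 (95% interval -0.62 to 0.26, limma adjusted p = 0.72) was -0.022 without it and -0.046 without wild-type replicate 3.

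Tnfaip3 (probe set 17239597) encodes A20, a ubiquitin-editing enzyme that shuts off signalling upstream of IKK. Its log2 signal was 6.64, 7.61 and 6.25 on the T173I arrays, against 6.58, 6.64 and 6.87 on the wild-type arrays. The T173I arrays held both the highest and the lowest value, with T173I replicate 1 inside the wild-type range. The group means were 6.83 ± 0.70 (SD, n = 3) in T173I and 6.70 ± 0.15 (SD, n = 3) in wild type, and 97.4% of the tested genes had a smaller SD among T173I arrays, against 73.5% among wild-type arrays. The difference of 0.14 (95% interval -0.65 to 0.92, limma adjusted p = 0.89) turned to -0.25 without T173I replicate 2 and was 0.43 without T173I replicate 3.

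Birc3 (probe set 17523863) encodes cIAP2, a ubiquitin ligase at TNF receptors that limits cell death. Its log2 signal was 7.74, 7.40 and 7.49 on the T173I arrays, against 7.93, 7.63 and 7.88 on the wild-type arrays. T173I replicates 2 and 3 were under every wild-type array, and T173I replicate 1 was above the lowest of them. The difference was -0.27 (95% interval -0.58 to 0.035, limma adjusted p = 0.51), or 1.21-fold lower in T173I. Unlike the IkB genes and Tnfaip3, Birc3 had its lowest T173I value on replicate 2, and its difference stayed between -0.37 and -0.20 when any 1 array was left out.

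**Figure D2:**
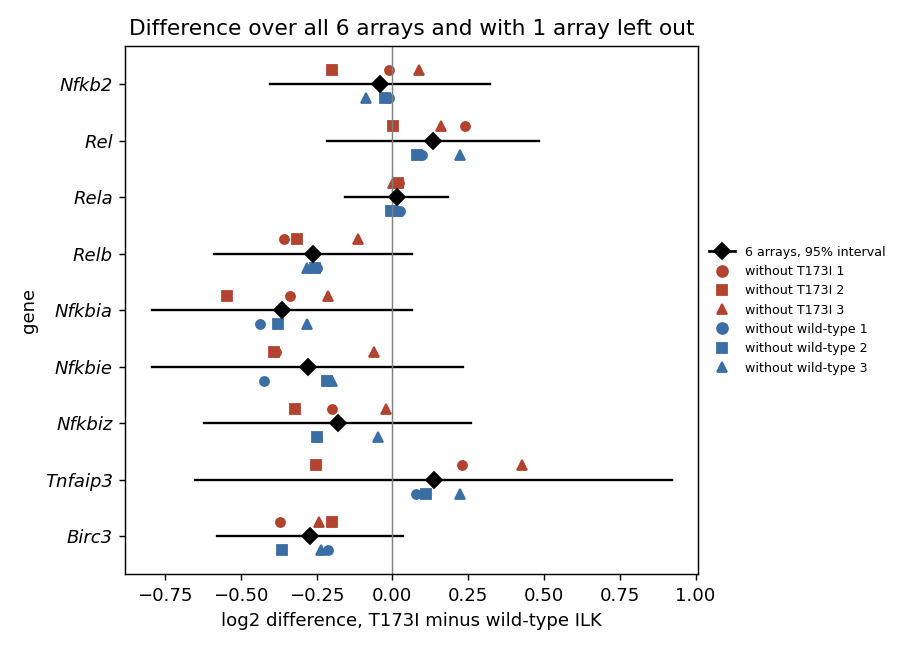
Log2 difference of each gene, T173I minus wild-type ILK (x axis). Black diamonds and lines are the estimate and 95% interval over 6 arrays, red symbols the estimates without 1 T173I array and blue symbols those without 1 wild-type array. Every 6-array interval includes 0, and Tnfaip3 runs from -0.25 to 0.43 as T173I arrays are left out.

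Set against the mean of the wild-type arrays, the T173I arrays differed from each other. On T173I replicate 3 the members had a median of -0.45 log2 units, against -0.0099 over all tested genes on the same array. On T173I replicate 1 the median was -0.072 (0.0088 over all genes), with 9 of 9 members below the wild-type mean where 47.4% of all genes were. On T173I replicate 2 the median was 0.0075 (-0.025 over all genes).

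Against the range of the wild-type arrays, T173I replicate 3 was below it for 7 of the 9 genes, where 33.8% of all genes tested were, and above it for 1, Rela, where 29.7% were. The 7 were Nfkb2, Relb, Nfkbia, Nfkbie, Nfkbiz, Tnfaip3 and Birc3, with deviations of -0.72 to -0.30 from the wild-type mean. T173I replicate 2 was above the range for Nfkb2, Rel and Tnfaip3 (3 of 9, against 31.2%) and below it for Relb and Birc3 (2 of 9, against 39.8%). T173I replicate 1 was above it for 0 of 9, against 29.1%, and below it for Nfkb2, Relb, Nfkbia and Nfkbiz (4 of 9, against 24.8%), of which Nfkbia deviated the most, by -0.42 from the wild-type mean. These counts describe single arrays and carry no test. Of the 7 genes low on T173I replicate 3, Nfkb2, Nfkbia, Nfkbie and Tnfaip3 have kB matches. Birc3 has none, and Relb and Nfkbiz have no window. Rel, which has matches, lay within the wild-type range on that array, and Rela, which has none, lay above it. Whether the matches bear on these values was not tested.

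**Figure D3:**
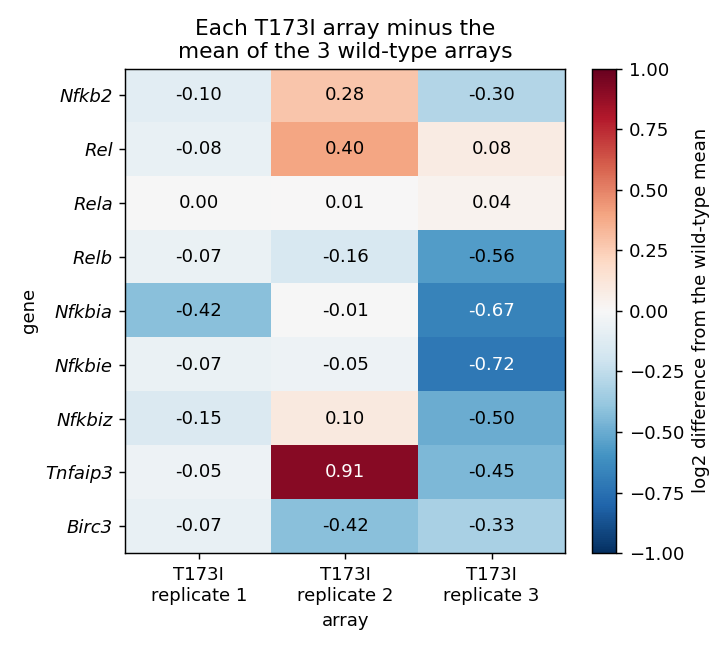
Log2 signal of the 9 genes (rows) on each T173I array (columns) minus the mean of the 3 wild-type arrays, printed in each cell and coloured from blue (lower in T173I) to red (higher in T173I). The T173I replicate 3 column lies between -0.72 and -0.30 for 7 genes, and the largest value is 0.91 for Tnfaip3 on T173I replicate 2.

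The wider spread in T173I was shared with most genes on these arrays. The SD among T173I arrays was larger than that among wild-type arrays for 8 of the 9 members, Rela being the exception, and for 70.6% of all genes tested. The median SD was 0.29 in T173I and 0.16 in wild type for the members, against 0.16 in T173I and 0.098 in wild type for all genes. Correlations between arrays over the tested genes were 0.964 to 0.983 within T173I and 0.989 to 0.993 within wild type, and the arrays' median log2 signals were 5.45 to 5.52. Leaving out T173I replicate 1, which lay nearest to the wild-type mean for 6 of the 9 members, gave 156 called genes and 0 called members. In that fit Relb (-0.36) and Birc3 (-0.37) were at an unadjusted p under 0.05, as were 22.2% of all genes.

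Among the members themselves, the closest profiles over the 6 arrays were those of Nfkbia and Nfkbiz, with a root mean square distance of 0.12 log2 units after each gene's own mean was taken away. The next were Nfkbia with Nfkbie (0.16) and Nfkbie with Nfkbiz (0.17), so the IkB genes formed the 3 nearest pairs of 36. The most distant pair was Tnfaip3 and Birc3 (0.52). For the 3 members with the largest SD over all arrays, the nearest genes were sought among 12057 tested protein-coding genes outside the list. Nearest to Tnfaip3 were Rcan1, an inhibitor of calcineurin (distance 0.087), Syde1 (0.14) and Thbs1, the matrix glycoprotein thrombospondin-1 (0.14). Nearest to Nfkbie were Zfp36, which encodes the mRNA-destabilising protein tristetraprolin (0.080), Pramel33 (0.10) and Myl3 (0.11). Nearest to Nfkbia were Lix1l (0.069), Cd79a (0.093) and Cenpv (0.12). All of these outside genes lay nearer to the member they were sought for than any other member did. With 6 arrays and that many candidates, some close profiles arise in any search of this kind.

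The rest of the pathway was read through 5 lists that held 77 genes, of which 72 had a value and 61 were tested. None passed at an adjusted p of 0.05 (lowest limma adjusted p = 0.45). At an unadjusted p under 0.05 there were 2 higher and 4 lower in T173I, which is 9.84% of the 61, near the 10.2% over all genes tested, and their median difference was -0.038.

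Of 16 tested genes of the IKK complex and its activators, 8 had positive and 8 negative differences, with a median of 0.0042. Ikbkb, the catalytic subunit IKK-beta that phosphorylates IkB, had log2 signals of 9.27, 9.29 and 9.04 on the T173I arrays, against 8.90, 9.03 and 8.97 on the wild-type arrays. All T173I arrays were above all wild-type arrays, by a mean of 0.24 (95% interval 0.0029 to 0.47, limma adjusted p = 0.49). Tab1, an activating partner of the kinase TAK1, differed by -0.34, and the TNF receptor adaptors Traf2 and Traf5 by -0.20 and -0.38. The interval of each of these 3 included 0. Without T173I replicate 2 the differences were -0.15 for Tab1, -0.11 for Traf2 and -0.077 for Traf5. Chuk, Ripk1 and Traf3 had no value here.

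The 4 other IkB-family genes all had negative differences that did not pass, where 7002 of all 13308 genes tested were negative. They were Bcl3 (-0.35), which encodes a nuclear IkB protein, Nfkbid (-0.11), Nfkbil1 (-0.077) and Nfkbib (-0.065), which encodes IkB-beta. The signs of Nfkbid, Nfkbil1 and Nfkbib each turned under an alternative, as given below. Bcl3 had 8.35, 7.97 and 7.49 on the T173I arrays, against 8.18, 8.26 and 8.41 on the wild-type arrays, so that it too was lowest on T173I replicate 3, without which its difference was -0.12. On T173I replicate 1 there were 0 of these 4 genes below the wild-type range, against 24.8% of all genes tested. There were 3 of 4 on T173I replicate 2, against 39.8%, and 3 of 4 on T173I replicate 3, against 33.8%.

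Of 11 tested deubiquitinases and other brakes, 5 were positive and 6 negative (median -0.0049). Birc2, which encodes cIAP1, a close relative of the protein made from Birc3, had log2 signals of 6.69, 6.39 and 6.78 on the T173I arrays, against 7.13, 7.01 and 7.07 on the wild-type arrays. All T173I arrays were under all wild-type arrays, and the mean difference of -0.45 (95% interval -0.74 to -0.17, limma adjusted p = 0.45) was 1.37-fold. Cyld, a deubiquitinase that restrains IKK, differed by 0.20, N4bp1 by 0.22 and Tnip2, a partner of A20, by -0.12, each with an interval that included 0.

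Of 18 tested cytokine and surface targets, 7 were positive and 11 negative (median -0.13). Ltb, which encodes lymphotoxin-beta, a TNF-family ligand, had 5.94, 5.67 and 5.63 on the T173I arrays, against 6.32, 6.82 and 6.14 on the wild-type arrays. Ccl5, a chemokine, had 6.61, 6.45 and 7.09 on the T173I arrays, against 7.80, 7.16 and 7.30 on the wild-type arrays. Both genes were lower on every T173I array, by 1.60-fold and 1.63-fold (limma adjusted p = 0.45 each). Cxcl10, an interferon-responsive chemokine, overlapped between the groups and differed by -1.04 (limma adjusted p = 0.49). Cd44, the hyaluronan receptor, had the opposite sign, at 8.33, 10.18 and 9.65 on the T173I arrays, against 7.53, 7.94 and 8.46 on the wild-type arrays. Its difference was 1.41 (95% interval 0.26 to 2.56, limma adjusted p = 0.46), and T173I replicate 1 lay within the wild-type range.

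Of 12 tested intracellular and secreted targets, 7 were positive and 5 negative (median 0.027). Irf1, an interferon regulatory factor, had 7.37, 6.59 and 6.59 on the T173I arrays, against 7.42, 7.29 and 7.44 on the wild-type arrays. T173I replicate 1 was inside the wild-type range and the other T173I arrays were under it, with a difference of -0.54 (95% interval -1.06 to -0.021, limma adjusted p = 0.49). Without T173I replicate 1 its difference was -0.80 with a limma adjusted p of 0.029, the one call among the 9 members and the 20 named pathway genes in any of the fits that left out 1 array. Nuak2, a kinase related to AMPK, differed by -0.78, Lcn2, the secreted protein lipocalin-2, by -1.03, and Plau, the urokinase plasminogen activator, by 0.45, each with an interval that included 0. The value of Lcn2 was set by T173I replicate 2, at 9.35 against 12.01 and 11.85 on T173I replicates 1 and 3 and 11.93 to 12.25 on the wild-type arrays, and the difference was -0.17 without that array. For Plau, leaving out T173I replicate 2 gave a difference of 0.0062, and leaving out T173I replicate 1 gave 0.82.

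**Figure D4:**
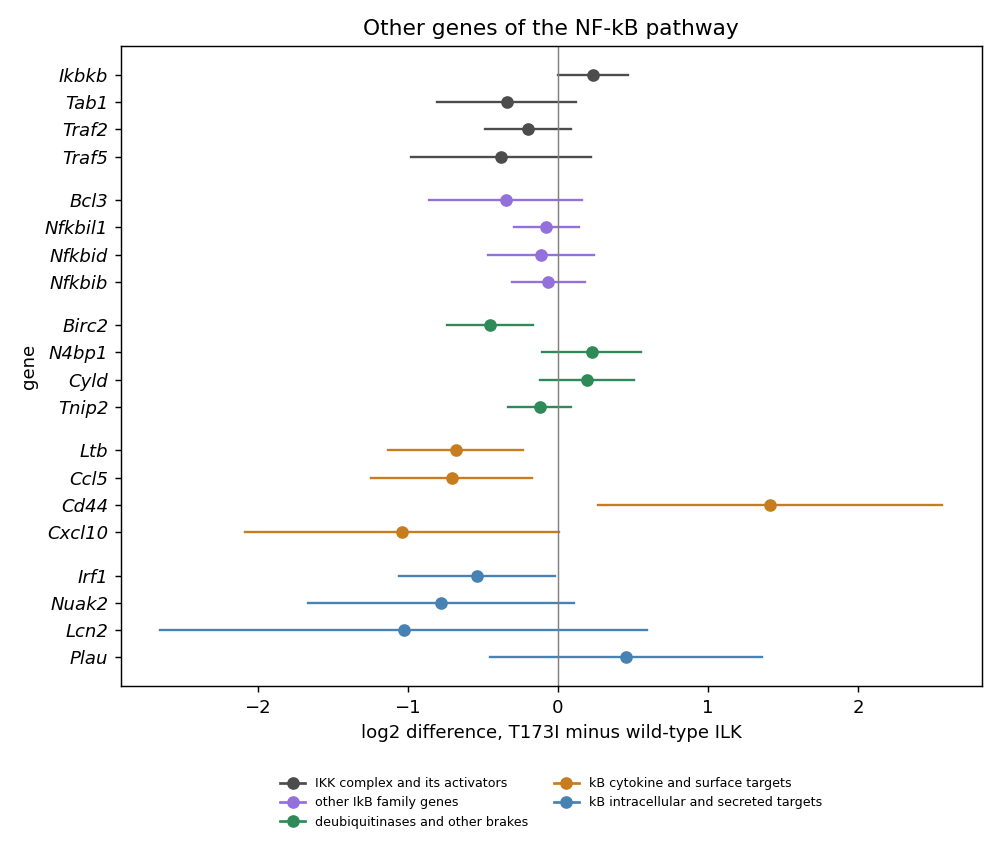
Log2 difference, T173I minus wild-type ILK (x axis), of the 4 genes with the smallest p in each of 5 lists of other NF-kB pathway genes; points are estimates over 6 arrays and lines 95% intervals, coloured by list. Birc2, Ltb, Ccl5 and Irf1 lie left of 0 and Ikbkb and Cd44 right of it without their intervals reaching 0, and none passed the adjusted threshold.

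Collecting duct epithelium was checked through 15 markers, of which 11 were above the filter, among them the epithelial genes Cdh1, Epcam, Krt8 and Krt18. The groups did not overlap for 4 of the 11. The keratins Krt7 (0.41), Krt8 (0.64) and Krt18 (0.44) were higher in T173I and the transcription factor Gata3 (-0.78) lower, with limma adjusted p of 0.45 each, where among all genes tested 7.23% were higher and 7.95% lower without overlap. Scnn1g, a subunit of the epithelial sodium channel, overlapped at 7.64, 5.90 and 5.71 on the T173I arrays, against 7.87, 7.28 and 7.69 on the wild-type arrays (limma adjusted p = 0.49). Aqp3, Aqp4, Scnn1b and Slc14a2 were among the dimmest 40% of genes, and Aqp2, the vasopressin-regulated water channel, was at 5.97 to 6.25 on the T173I arrays and 6.01 to 6.09 on the wild-type arrays. Of 10 macrophage and leukocyte markers with a value, 6 were among the dimmest 40%, including Ptprc, the common leukocyte antigen, at 3.55 to 3.81 on the T173I arrays and 3.64 to 3.73 on the wild-type arrays. The list's mean log2 level was 5.40 to 5.64 on the T173I arrays and 5.58 to 5.77 on the wild-type arrays. The groups did not overlap for its 4 tested members: Cd14, a co-receptor for lipopolysaccharide upstream of NF-kB (-1.37), Csf1r (-0.78) and Tyrobp (-0.29) were lower and Cd68 (1.10) higher in T173I, with limma adjusted p of 0.45 each, against the same 7.95% lower and 7.23% higher among all genes tested. Tyrobp lay near the filter level of log2 5.37, at 5.33, 5.09 and 5.28 on the T173I arrays, and passed it only through its wild-type values. For the 6 markers of this list left out as dim, the groups overlapped. The mean log2 level of 8 fibroblast markers was 5.04 to 5.43 on the T173I arrays and 4.98 to 5.34 on the wild-type arrays. For 6 endothelial markers it was 5.09 to 5.23 on the T173I arrays and 5.00 to 5.13 on the wild-type arrays, and for 6 proximal tubule markers 5.26 to 5.47 on the T173I arrays and 5.38 to 5.41 on the wild-type arrays. The labels name only IMCD cells. The part of these cell types in the results was not tested, and fewer cells of a type and less RNA per cell cannot be told apart in such bulk samples.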

How the data were processed

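Total RNA from 6 samples was amplified with the Affymetrix WT PLUS kit and hybridised to 1 array each, per the labels' protocols. The authors deposited 1 table of log2 signals per probe set, produced by RMA according to the submitters' processing notes. The version of RMA and how it grouped probes were not given in the sources used here. RMA makes the signal distributions of arrays alike, so a shift of most genes in 1 direction would not be seen, and signals of different genes are not comparable. Array signal has no read depth; the number of arrays limits the precision.

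Of 41345 probe sets, 23521 carried exactly 1 gene symbol, and the brightest per gene gave 22180 genes. The filter removed the dimmest 40% by mean signal, up to log2 5.37. T173I was compared with wild type by limma 3.58.1 in R 4.3.3 (lmFit, eBayes, no covariate, both directions), with Benjamini-Hochberg adjustment over 13308 genes and a threshold of 0.05. Whether the replicates are separate cultures is not given, so p-values measure the spread between these arrays. The procedure was tested on simulated data with planted changes larger than any member's difference and with equal spread in both groups. That test does not bear on differences as small as those of the members. Of each pathway list, up to 4 genes with the smallest unadjusted p were named. The members, lists and alternatives were chosen with earlier results of these data known. The kB motif search was chosen after the data were seen. Alternatives covered the filter, eBayes prior, normalization, probe set rule, array weights, replicate block and leaving out each array.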

Additional observations from a re-analysis of the deposited data

How the results depend on the processing

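The count of called members was 0 in the fit over 6 arrays and under all 16 alternatives, with a lowest limma adjusted p among members of 0.13 (array weights) to 0.84 (without wild-type replicate 1). The count of called genes was 0 except without T173I replicate 1, so that leaving out arrays gave 0 to 156. The count of members at an unadjusted p under 0.05, 0 over 6 arrays, was 0 to 2 when an array was left out. Without T173I replicate 1 the members were Relb and Birc3, where 22.2% of all genes were at that level. Nfkbia was at it without T173I replicate 2 (7.64% of all genes) and Birc3 without wild-type replicate 2 (5.97% of all genes). Array weights gave 3 (Nfkbia, Nfkbie and Relb), where 21.5% of all genes were at that level. The replicate block gave 1 (Birc3), where 11.3% of all genes were at that level, and called no gene. Same-numbered arrays were not treated as pairs, since their deviations from the group means correlated by only 0.048 to 0.067. Signs turned for members near 0 or spread widely. Nfkb2 ran from -0.20 to 0.087 and Rela from -0.0033 to 0.027 as arrays were left out, and Rela was -0.0020 with median centring. Tnfaip3 ran from -0.25 to 0.43, and was -0.18 with array weights. Of the pathway genes, Nfkbib ran from -0.11 to 0.024, Nfkbid from -0.21 to 0.020, and Nfkbil1 was 0.0075 on the probe set with the largest interquartile range. These were 5 of 143 values for the members and 3 of 317 for the 20 named pathway genes; the cause was not tested. Tnfaip3 has no value with the dimmest 60% of genes left out.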

Other observations

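T173I replicate 2 carried the highest of the 6 values for 12 of the 30 tested kB targets of both lists, where it did for 22.6% of all genes tested. Of the 12, 3 that the rule had not named are given here, picked after their values were seen. Of the members, Nfkb2, Rel and Tnfaip3 were also highest on that array, while Birc3 had its lowest of the 6 values there. Ptgs2, which encodes the prostaglandin-forming enzyme COX-2, had log2 signals of 9.00, 12.31 and 11.14 on the T173I arrays, against 10.03, 9.55 and 10.20 on the wild-type arrays. Lif, a cytokine of the interleukin-6 family, had 7.47, 9.96 and 8.19 on the T173I arrays, against 7.19, 7.41 and 7.60 on the wild-type arrays. Cxcl1, a neutrophil-attracting chemokine, had 7.15, 8.90 and 6.84 on the T173I arrays, against 7.22, 7.44 and 8.19 on the wild-type arrays. For Cxcl1, as for Tnfaip3, the T173I arrays held both the highest and the lowest of the 6 values. The limma adjusted p was 0.67 for Ptgs2, 0.53 for Lif and 0.99 for Cxcl1.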
